A study of Mus musculus with 14 samples.

Results

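Chemokine genes were followed across lung tumor nodules of mice. They were the 40 entries of the deposited count table, among 55291 gene symbols, named Ccl or Cxcl plus a number, with an optional letter after Ccl, together with Cx3cl1, Xcl1, Pf4 and Ppbp. The nodules grew in C57BL/6 mice of the genotype HER2 Exon20YVMA, which every group carried, an insertion in the kinase domain of the receptor HER2. The groups were nodules under mobocertinib (TAK-788), which blocks the kinases of EGFR and HER2 with exon 20 insertions (n = 3), under T-DM1, a HER2 antibody that carries a microtubule poison (n = 3), under both drugs (called combination, n = 3), nodules with acquired resistance to mobocertinib alone (called resistant, n = 3), and nodules under vehicle (n = 2). All treatment was long term. The labels used here give no dose, no length of treatment in days, no animal age, no driver of the HER2 allele, and do not say whether nodules of a group came from separate animals. The p-values therefore measure only the spread between these samples, which may be technical.

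Chemokines are small secreted proteins that steer leukocytes along gradients by binding receptors of the G-protein-coupled family. CXC members such as Cxcl1 and Cxcl2 draw neutrophils through Cxcr2, many CC members draw monocytes, macrophages, dendritic cells or lymphocytes, and a homeostatic set, among them Cxcl12, Ccl21a and Cxcl13, places cells within tissue. In lung they are made by epithelium, alveolar macrophages, fibroblasts, endothelium and recruited leukocytes.

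Of the 40 genes, 36 had enough counts to be tested among 17933 genes. The other 4 were Ccl1, a ligand of Ccr8, with 23 counts in all libraries together, and Ccl21b, Ccl26 and Ccl27b, with a count of 0 in every library. Values below are CPM, counts scaled to library size with TMM factors, in the order of the replicate numbers within a group. Changes are log2 fold changes ± SE, with the changes from edgeR's quasi-likelihood test. The SE is an approximation, the size of the change divided by the square root of that test's F. A gene is said to be called where its p, adjusted by Benjamini-Hochberg over all 17933 genes, was below 0.05. Libraries held 19344015 to 31287261 counts. Chemokine genes took 0.144% to 0.854% of the counts in the 12 libraries of the other groups and 1.13% to 1.54% in the vehicle libraries. Without Cxcl15 and Ccl6 those shares were 0.0856% to 0.152% in the 12 libraries and 0.130% to 0.190% in vehicle. The listed pan-epithelial markers (Epcam, Krt8, Krt18 and Cdh1) summed to 932 to 3704 CPM in the 12 libraries and 2866 and 1967 CPM in vehicle.

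The vehicle libraries stood apart in their mix of RNA. Short messenger RNAs, those under 1 kb, took 8.16% to 14.3% of all counts in the 12 other libraries and 30.9% to 36.5% in vehicle. Ribosomal protein genes took 3.38% to 7.18% of counts in the 12 and 19.4% to 20.1% in vehicle. Of the 36 tested chemokine genes, 15 had a messenger RNA under 1 kb. This difference and the treatment cannot be told apart, since both vehicle libraries carried it. Counts of calls against vehicle are therefore also given after correction for transcript length in each library, called length-corrected, and from the deposited TPM values, which are per transcript length. On log2(TPM + 1) the median of all genes moved up by 1.11 to 1.27 against vehicle. For single chemokine genes, these fits are named where they end a call. Calls of receptors, pathway genes and cell type markers were not followed in these fits.

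Against vehicle, more chemokine genes were called lower than higher in each group, also with length correction, while on log2(TPM + 1) more were called higher in T-DM1 and combination nodules. In mobocertinib nodules 18 of 36 were called lower and 2 higher, against 16.1% lower and 16.8% higher among all genes tested (32.9% called in all), and their median change was −2.12 against 0.09 for all genes. With length correction 11 were lower and 2 higher (11.5% and 9.46% of all genes), and on log2(TPM + 1) 10 were lower and 5 higher of 33 tested (3.11% and 55% of all genes). Without mobocertinib replicate 3, 13 were called in all, and 4073 of the 17863 genes tested. Without vehicle replicate 2 fewer were called, of chemokine genes and of all genes, but a single vehicle library was left.

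In T-DM1 nodules 11 were lower and 4 higher, against 14.9% and 16.7% of all genes (31.7% called in all), with a median of −0.92 against 0.18. With length correction 6 were lower and 5 higher (10.1% and 8.57% of all genes), and on log2(TPM + 1) 5 were lower and 12 higher of 33 (3.51% and 57.4%). Without T-DM1 replicate 3, 12 were called, and 3789 of the 17883 genes tested. Without vehicle replicate 2 fewer were called, of chemokine genes and of all genes, but a single vehicle library was left.

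In combination nodules 16 were lower and 4 higher, against 17.4% and 17.6% of all genes (35% called in all), with a median of −1.68 against 0.08. With length correction 9 were lower and 5 higher (12.3% and 9.76%), and on log2(TPM + 1) 6 were lower and 7 higher of 33 (3.38% and 56.7%). Without combination replicate 1 or 2, 12 or 13 were called, and 4267 of 17904 or 5064 of 17870 genes tested. Without vehicle replicate 2 fewer were called, of chemokine genes and of all genes, but a single vehicle library was left.

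In resistant nodules 16 were lower and 3 higher, against 19% and 22% of all genes (41% called in all), with a median of −1.89 against 0.18. With length correction 12 were lower and 4 higher (13% and 12.5%), and on log2(TPM + 1) 11 were lower and 7 higher of 33 (4.79% and 59.7%). The 4 comparisons share the 2 vehicle libraries. Of the 74 calls, 30 held under every alternative that could be run, and they belonged to Ccl17, Ccl6, Pf4 and Cxcl12 in 4 comparisons each, Cxcl3 in 3, Ccl12, Ccl27a, Ccl9 and Cxcl1 in 2 each, and Ccl3, Ccl4 and Ccl7 in 1 each. DESeq2 gave no adjusted p for Ccl6, so the calls of Ccl6 could not be checked with it.

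**Figure D1:**
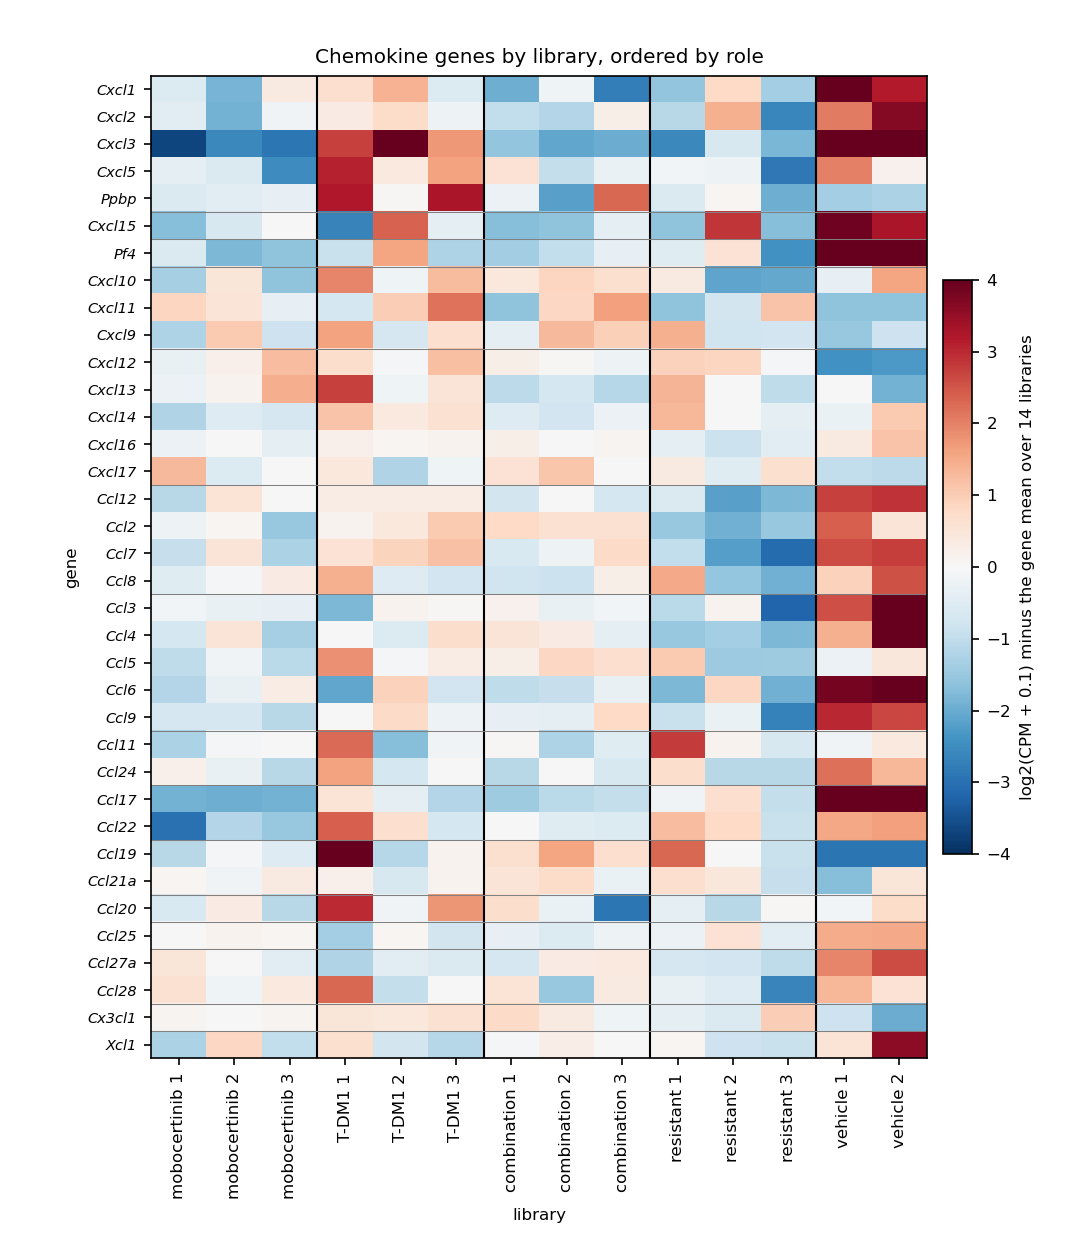
The 36 tested chemokine genes (one line each, ordered by role) in the 14 libraries (one column each, grouped by treatment, vehicle at the right). Color gives log2(CPM + 0.1) relative to the mean of the gene in the 14 libraries, limited to 4 in either direction, and both vehicle columns are above the mean for Cxcl1, Pf4, Ccl17 and Ccl6.

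Cxcl3, which draws neutrophils through Cxcr2, was the single chemokine gene called different among the 4 groups other than vehicle. Cxcl3 had 0, 0.111 and 0.0711 CPM in mobocertinib, 8.35, 40.9 and 4.08 in T-DM1, 0.325, 0.197 and 0.221 in combination, 0.109, 0.705 and 0.257 in resistant and 79.2 and 25.6 in vehicle nodules. T-DM1 and vehicle nodules, which overlapped, thus stood above every mobocertinib, combination and resistant nodule. In edgeR's fit across all genes, Cxcl3 was higher in T-DM1 than in mobocertinib nodules by 7.99 ± 1.14 (adjusted p = 0.0361), and edgeR's F-test over the 4 groups gave an adjusted p of 0.01997. The 3 mobocertinib libraries held 5 counts of Cxcl3 in all and the 3 T-DM1 libraries 1623, a ratio of 0.00333 with an exact 95% interval of 0.00108 to 0.00778 that covers counting error only. Against T-DM1, the combination had less Cxcl3 in all 3 nodules (−6.14 ± 1.003), but this missed the threshold (adjusted p = 0.228), and DESeq2 called it (adjusted p = 7.54e-09).

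Against vehicle, Cxcl3 changed by −9.55 ± 1.21 in mobocertinib (adjusted p = 0.000321), −7.701 ± 1.08 in combination (adjusted p = 0.000355) and −7.18 ± 1.06 in resistant nodules (adjusted p = 0.000281). The difference of T-DM1 from vehicle was −1.56 ± 0.847 (adjusted p = 0.172), and without T-DM1 replicate 2, its highest nodule, −3.08 (adjusted p = 0.0138). The call of T-DM1 against mobocertinib was lost without any 1 mobocertinib library or without T-DM1 replicate 1 or 3 (adjusted p 0.0514 to 0.334), and over the libraries left out the change was 6.47 to 8.602. It was also lost on log2(TPM + 1), with no filter beyond 1 count and with those 2 groups fitted alone (adjusted p = 0.05301, 0.0558 and 0.191), and DESeq2 gave an adjusted p of 1.21e-11. The call over the 4 groups was lost without mobocertinib replicate 1 or any combination library (adjusted p 0.0529 to 0.0672). It was also lost on log2(TPM + 1) (adjusted p = 0.113) and on log2(TPM + 0.1) (adjusted p = 0.0699).

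Cxcl1 and Cxcl2, the other close relatives of human GRO genes, lay below vehicle in T-DM1 nodules too. Cxcl1 had 0.697, 0.221 and 1.39 CPM in mobocertinib, 1.78, 2.97 and 0.707 in T-DM1, 0.203, 0.945 and 0.0736 in combination, 0.291, 1.95 and 0.3601 in resistant and 23.9 and 10.4 in vehicle nodules. Every nodule of the 4 groups lay below both vehicle nodules. Changes of Cxcl1 against vehicle were −4.47 ± 1.12 in mobocertinib nodules (adjusted p = 0.00945), −3.23 ± 1.06 in T-DM1 nodules (adjusted p = 0.0347), −5.38 ± 1.17 in combination nodules (adjusted p = 0.00407) and −4.297 ± 1.11 in resistant nodules (adjusted p = 0.00846). Cxcl2 had 0.598, 0.147 and 0.746 CPM in mobocertinib, 1.06, 1.46 and 0.707 in T-DM1, 0.365, 0.315 and 0.994 in combination, 0.327, 2.41 and 0.0515 in resistant and 3.84 and 11.7 in vehicle nodules. Its changes against vehicle were −3.96 ± 1.15 in mobocertinib nodules (adjusted p = 0.0197), −3.78 ± 1.14 in combination nodules (adjusted p = 0.0219) and −3.05 ± 1.11 in resistant nodules (adjusted p = 0.0424), and no nodule of these groups reached vehicle. T-DM1 nodules also lay below vehicle for Cxcl2, by −2.85 ± 1.101, short of the threshold (adjusted p = 0.0646). On length correction the calls of Cxcl1 in T-DM1 and resistant nodules and that of Cxcl2 in resistant nodules were lost. On log2(TPM + 1) Cxcl1 in T-DM1 and all 3 calls of Cxcl2 were lost, Cxcl2 at −1.08, adjusted p = 0.07804 in mobocertinib, −0.92, adjusted p = 0.129 in combination and −0.86, adjusted p = 0.145 in resistant nodules. The calls of Cxcl2 were also lost without mobocertinib replicate 2 or vehicle replicate 2 in mobocertinib, without combination replicate 1, combination replicate 2 or vehicle replicate 2 in combination and without resistant replicate 1, resistant replicate 3 or vehicle replicate 2 in resistant nodules (adjusted p 0.0653 to 0.263). Without T-DM1 replicate 1, T-DM1 replicate 3, vehicle replicate 1 or vehicle replicate 2, Cxcl1 was not called in T-DM1 nodules (adjusted p 0.0626 to 0.146).

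The 3 genes lie in one cluster on mouse chromosome 5 (mm10, bases 90759360 to 90905938, 146.6 kb), in the order Cxcl5, Ppbp, Pf4, Cxcl3, Cxcl15, Cxcl1 and Cxcl2. Cxcl3 lies at bases 90786103 to 90789600 on the plus strand, 12.7 kb beyond Pf4 and 4.93 kb before Cxcl15. The 250 bases before the transcription start of Cxcl3, Cxcl1, Cxcl2 and their neighbor Cxcl15 are shown because these neighbors differed in their pattern over the groups (RefSeq, GRCm38.p6, plus strand, chr5:90785851-90786100, chr5:90890995-90891244, chr5:90903649-90903898 and chr5:90794284-90794533 in that order). Capitals mark matches on either strand to 2 patterns, a form of the NF-kB site (GGG, any 2 bases, TTTCC) and TATAAA, the TATA box.
Cxcl3: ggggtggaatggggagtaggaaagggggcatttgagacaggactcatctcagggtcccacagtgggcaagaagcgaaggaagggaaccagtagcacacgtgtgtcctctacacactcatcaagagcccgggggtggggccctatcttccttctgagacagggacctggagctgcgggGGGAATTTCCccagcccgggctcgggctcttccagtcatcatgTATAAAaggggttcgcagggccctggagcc
Cxcl1: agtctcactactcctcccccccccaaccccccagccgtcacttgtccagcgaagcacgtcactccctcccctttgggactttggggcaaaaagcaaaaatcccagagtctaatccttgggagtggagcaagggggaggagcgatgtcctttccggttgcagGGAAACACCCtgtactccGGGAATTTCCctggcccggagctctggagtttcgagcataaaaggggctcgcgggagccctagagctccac
Cxcl2: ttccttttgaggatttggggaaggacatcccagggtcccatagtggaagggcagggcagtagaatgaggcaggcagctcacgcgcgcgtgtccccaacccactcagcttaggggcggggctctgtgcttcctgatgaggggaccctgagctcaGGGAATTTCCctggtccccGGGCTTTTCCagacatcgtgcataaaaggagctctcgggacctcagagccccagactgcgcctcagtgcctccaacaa
Cxcl15: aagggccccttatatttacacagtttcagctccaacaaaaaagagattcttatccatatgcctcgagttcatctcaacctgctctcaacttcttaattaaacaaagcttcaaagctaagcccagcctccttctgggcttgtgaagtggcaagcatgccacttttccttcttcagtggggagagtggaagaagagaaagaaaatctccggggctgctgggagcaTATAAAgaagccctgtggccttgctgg

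The NF-kB pattern stood 73 bases before the start in Cxcl3, where it reads GGGAATTTCC, 71 in Cxcl1 and 97 in Cxcl2, with a second match 89 bases before the start of Cxcl1 on the minus strand and 78 in Cxcl2. Windows of Ccl9 and Ccl20 also held it, so 5 of the 35 windows of the 29 chemokine genes that matched did, and 1.41% of all 32851 windows. TATAAA stood 30 bases before the start in Cxcl3 and 27 in Cxcl15 (12.4% of all windows). A match is a description of letters only.

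Cxcl5 and Ppbp, at the other end of the cluster, are Cxcr2 ligands of epithelium and of platelets. Ppbp had 1.64, 1.81 and 1.95 CPM in mobocertinib, 23.6, 2.54 and 24.9 in T-DM1, 2.07, 0.472 and 12.7 in combination, 1.64, 2.61 and 0.566 in resistant and 0.8998 and 0.965 in vehicle nodules. All T-DM1 nodules lay above all vehicle and all mobocertinib nodules, and T-DM1 replicate 2 and combination replicate 3 were the nodules farthest from the others of their groups. Against vehicle, Ppbp rose in T-DM1 by 4.18 ± 1.33 (adjusted p = 0.0302), and the call was lost without T-DM1 replicate 1 or 3 or either vehicle library (adjusted p 0.05901 to 0.141). Against mobocertinib its difference in T-DM1 was 3.23 ± 1.05 (adjusted p = 0.303). Cxcl5 was not called in any comparison and is given here after its values were seen. Cxcl5 had 4.43, 3.84 and 0.924 CPM in mobocertinib, 50.2, 7.71 and 17.8 in T-DM1, 8.77, 2.91 and 4.75 in combination, 5.42, 5.02 and 0.7202 in resistant and 23.6 and 6.61 in vehicle nodules. It was higher in every T-DM1 nodule than in any mobocertinib nodule (3.04 ± 0.898, adjusted p = 0.263).

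**Figure D2:**
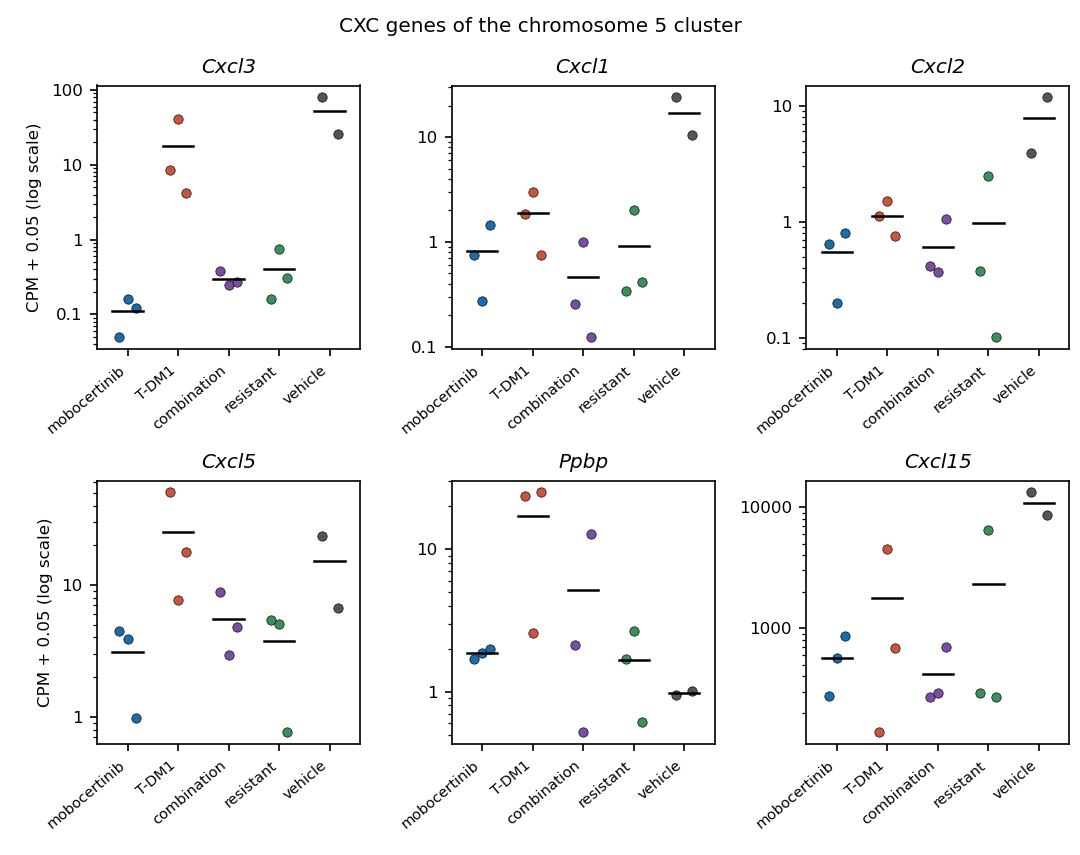
CPM + 0.05 (log axis) of 6 CXC genes of the chromosome 5 cluster in each library (points) with the group mean (line), vehicle at the right. Cxcl3 was 8.35, 40.9 and 4.08 CPM in T-DM1 nodules and at most 0.705 CPM in mobocertinib, combination and resistant nodules.

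Markers of neutrophils are given beside these genes. The 10 markers summed to 45.6 to 298 CPM in mobocertinib, 145 to 515 in T-DM1, 78.8 to 258 in combination and 22.3 to 126 in resistant nodules, and to 1209 and 967 CPM in vehicle. Of the 10, 4, 2, 2 and 8 were called lower against vehicle in those groups and none higher, where 16.1%, 14.9%, 17.4% and 19% of all genes were called lower. Their part in the chemokine results was not tested. In such bulk samples, fewer cells of a type and less RNA per cell cannot be told apart.

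Cxcl15, called lungkine, is a CXC gene of mouse airway and alveolar epithelium. Cxcl15 had 274, 564 and 869 CPM in mobocertinib, 139, 4516 and 689.9 in T-DM1, 272, 289 and 693 in combination, 293, 6422 and 272 in resistant and 13230 and 8558 in vehicle nodules. In CPM, T-DM1 replicate 2 and resistant replicate 2 lay below both vehicle nodules and above the other 10. In TPM its level was 154, 385 and 640.1 in mobocertinib, 86.9, 2879 and 488 in T-DM1, 203, 188 and 483 in combination, 229, 4230.1 and 196 in resistant and 3223 and 1449.9 in vehicle nodules, so that on this scale resistant replicate 2 lay above both vehicle nodules and T-DM1 replicate 2 between them. Its changes against vehicle were −4.26 ± 1.44 in mobocertinib nodules (adjusted p = 0.0381), −2.61 ± 1.36 in T-DM1 nodules (adjusted p = 0.157), −4.704 ± 1.46 in combination nodules (adjusted p = 0.0257) and −2.23 ± 1.35 in resistant nodules (adjusted p = 0.201). The alveolar type 2 markers, such as surfactant protein genes, summed to 87660 CPM in T-DM1 replicate 2, 61480 in resistant replicate 2, 10830 to 46270 in the other 10 nodules and 163700 and 231300 in vehicle. Of these 10 markers, 1, 1, 2 and 1 were called lower in mobocertinib, T-DM1, combination and resistant nodules and 0 higher. Of all genes, 16.1%, 14.9%, 17.4% and 19% were called lower in those groups. The part of these markers was not tested. Without T-DM1 replicate 2 the change of Cxcl15 in T-DM1 was −4.72 (adjusted p = 0.0323), and without resistant replicate 2 that in resistant nodules was −5.27 (adjusted p = 0.00948). The mobocertinib call was lost without any 1 library, with adjusted p of 0.0797 to 0.109, and the combination call without any but combination replicate 3, with adjusted p of 0.0599 to 0.0829. Neither was called on log2(TPM + 1), and that in mobocertinib not with length correction.

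Pf4, platelet factor 4, is stored in platelets and also made by some macrophages. Pf4 had 16.98, 7.16 and 8.28 CPM in mobocertinib, 13.7, 75.3 and 10.6 in T-DM1, 9.496, 12.6 and 20.2 in combination, 18.1, 38.2 and 4.63 in resistant and 624 and 788 in vehicle nodules. All 12 nodules lay below both vehicle nodules, and T-DM1 replicate 2 and resistant replicate 2 were again the highest of the 12. Pf4 changed by −6.03 ± 0.964 in mobocertinib (adjusted p = 0.000881), −4.41 ± 0.8996 in T-DM1 (adjusted p = 0.00358), −5.64 ± 0.947 in combination (adjusted p = 0.00101) and −5.12 ± 0.926 in resistant nodules (adjusted p = 0.0011). Markers of platelets and megakaryocytes summed to 4.22 to 16.1 CPM in the 12 nodules and 5.64 and 10.8 CPM in vehicle, and of 9 tested 0 were lower and 1 higher in each comparison. Their median change was 2.71 in mobocertinib, 1.71 in T-DM1, 2.58 in combination and 2.8 in resistant nodules. Of all genes, 14.9% to 19% were called lower and 16.7% to 22% higher. The part of these markers was not tested.

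CC ligands that draw monocytes and macrophages, Ccl6, Ccl9, Ccl3 and Ccl4, were lower in all groups. Ccl6 and Ccl9 are mouse genes that bind Ccr1, and Ccl6 is abundant in alveolar macrophages. Ccl6 had 213, 390.2 and 585 CPM in mobocertinib, 113, 898 and 283 in T-DM1, 234, 252 and 388 in combination, 137, 843 and 127 in resistant and 6737 and 9957 in vehicle nodules. Ccl9 had 49.8, 50.5 and 36.9 CPM in mobocertinib, 79.2, 137 and 69.4 in T-DM1, 64.03, 60.9 and 140.4 in combination, 43.3, 67.2 and 12.2 in resistant and 650.5 and 512 in vehicle nodules. The highest of the 12 nodules had less than the lower vehicle nodule for both genes. Ccl6 changed by −4.398 ± 0.924 in mobocertinib, −4.27 ± 0.92 in T-DM1, −4.84 ± 0.941 in combination and −4.499 ± 0.928 in resistant nodules (adjusted p = 0.00378, 0.00462, 0.00223 and 0.00234 in that order). Ccl9 changed by −3.67 ± 0.58 in mobocertinib nodules (adjusted p = 0.000813), −2.61 ± 0.562 in T-DM1 nodules (adjusted p = 0.004598), −2.72 ± 0.563 in combination nodules (adjusted p = 0.00324) and −3.83 ± 0.583 in resistant nodules (adjusted p = 0.000352). On log2(TPM + 1) its calls in T-DM1 (−0.7, adjusted p = 0.3398) and combination nodules (−0.799, adjusted p = 0.286) were lost.

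Ccl3 and Ccl4 are the macrophage inflammatory proteins 1-alpha and 1-beta. Ccl3 had 3.73, 3.28 and 3.23 CPM in mobocertinib, 1.102, 4.46 and 4.24 in T-DM1, 4.63, 3.31 and 3.72 in combination, 1.89, 4.48 and 0.3601 in resistant and 24.8 and 70.1 in vehicle nodules. Ccl4 had 1.09, 2.65 and 0.675 CPM in mobocertinib, 1.86, 1.24 and 3.06 in T-DM1, 2.68, 2.32 and 1.399 in combination, 0.582, 0.664 and 0.463 in resistant and 5.16 and 34.2 in vehicle nodules. Both were below vehicle in all 12 nodules, and vehicle replicate 2 was well above vehicle replicate 1. Ccl3 changed by −3.79 ± 0.791 in mobocertinib nodules (adjusted p = 0.00362), −3.86 ± 0.792 in T-DM1 nodules (adjusted p = 0.00358), −3.61 ± 0.785 in combination nodules (adjusted p = 0.00421) and −4.39 ± 0.8102 in resistant nodules (adjusted p = 0.00118). Ccl4 changed by −3.73 ± 0.765 in mobocertinib nodules (adjusted p = 0.003298), −3.26 ± 0.751 in T-DM1 nodules (adjusted p = 0.00665), −3.203 ± 0.7501 in combination nodules (adjusted p = 0.00626) and −5.09 ± 0.813 in resistant nodules (adjusted p = 0.000462). Without vehicle replicate 2, neither was called in mobocertinib, T-DM1 or combination nodules, for example Ccl3 in mobocertinib at −2.74 (adjusted p = 0.0515) and Ccl4 at −1.69 (adjusted p = 0.1303). With length correction the calls of Ccl3 in combination (−2.19, adjusted p = 0.0575) and of Ccl4 in T-DM1 (−1.83, adjusted p = 0.0904) and combination nodules (−1.73, adjusted p = 0.101) were lost. The same 3 were lost on log2(TPM + 1), at −1.59, adjusted p = 0.0593, −1.03, adjusted p = 0.133 and −0.88, adjusted p = 0.197. Ccl5, known as RANTES, was between 1.82 and 18.6 CPM in the 12 nodules and had 4.38 and 6.98 CPM in vehicle, and was not called in any comparison.

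Ccr2 ligands draw inflammatory monocytes. Ccl12 is the mouse monocyte chemoattractant protein 5. Ccl12 had 0.896, 3.02 and 2.06 CPM in mobocertinib, 2.54, 2.51 and 2.55 in T-DM1, 1.18, 2.05 and 1.22 in combination, 1.34, 0.373 and 0.514 in resistant and 13.98 and 15.7 in vehicle nodules. All 12 nodules lay below vehicle, and the change was −2.89 ± 0.6001 in mobocertinib nodules (adjusted p = 0.00357), −2.55 ± 0.594 in T-DM1 nodules (adjusted p = 0.00708), −3.32 ± 0.609 in combination nodules (adjusted p = 0.001595) and −4.296 ± 0.634 in resistant nodules (adjusted p = 0.000287). Ccl7 had 0.348, 1.11 and 0.249 CPM in mobocertinib, 1.14, 1.46 and 1.81 in T-DM1, 0.446, 0.6297 and 1.33 in combination, 0.327, 0.08296 and 0 in resistant and 4.98 and 5.57 in vehicle nodules. Ccl2 had 1.05, 1.29 and 0.355 CPM in mobocertinib, 1.36, 1.67 and 2.63 in T-DM1, 2.19, 1.89 and 1.92 in combination, 0.363, 0.249 and 0.3601 in resistant and 6.84 and 1.78 in vehicle nodules. For Ccl2, T-DM1 replicate 3 and all 3 combination nodules lay above the lower vehicle nodule, so those groups overlapped vehicle. Ccl7 was called in mobocertinib (−3.197 ± 0.925, adjusted p = 0.0193), combination (−2.71 ± 0.909, adjusted p = 0.0349) and resistant nodules (−5.15 ± 1.02, adjusted p = 0.001798). Ccl2, monocyte chemoattractant protein 1, was called in mobocertinib (−2.26 ± 0.665, adjusted p = 0.0207) and resistant nodules (−3.72 ± 0.703, adjusted p = 0.00139). Length correction ended the calls of Ccl12 in mobocertinib and T-DM1, Ccl7 in mobocertinib and combination, and Ccl2 in mobocertinib nodules. On log2(TPM + 1) Ccl12 in T-DM1, Ccl7 in combination and both calls of Ccl2 were lost. Ccl7 was also lost without mobocertinib replicate 1, mobocertinib replicate 3 or vehicle replicate 2 in mobocertinib and combination replicate 1, combination replicate 2, vehicle replicate 1 or vehicle replicate 2 in combination nodules, and Ccl2 without mobocertinib replicate 3 or vehicle replicate 1 in mobocertinib nodules. Ccl8, of the same family and the one with the highest TPM of the 4, was not called. Ccl8 had 9.06, 12.4 and 16.1 CPM in mobocertinib, 34.2, 8.94 and 7.54 in T-DM1, 7.34, 7.01 and 14.99 in combination, 37.1, 4.31 and 3.29 in resistant and 24.4 and 75.0 in vehicle nodules.

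Alveolar macrophage markers, among them Marco, Siglecf and Chil3, are given beside these ligands. The 10 summed to 923 to 3499 CPM in mobocertinib, 435 to 2721 in T-DM1, 592 to 849 in combination and 431 to 1985 in resistant nodules, and to 9749 and 8481 CPM in vehicle. Of the 10, 3, 4, 5 and 4 were called lower and none higher, against the same shares of all genes as for the neutrophil markers. The 10 markers of monocytes and interstitial macrophages summed to 1037 to 5519 CPM in the 12 nodules and 1164 and 2380 in vehicle. Their part in the results was not tested.

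Ccl17 and Ccl22 draw cells that carry Ccr4, such as regulatory and helper T cells, and are made by dendritic cells and macrophages. Ccl17 had 2.14, 2.06 and 2.17 CPM in mobocertinib, 12.1, 6.25 and 3.61 in T-DM1, 3.003, 3.896 and 4.27 in combination, 7.56, 13.4 and 4.22 in resistant and 798 and 142 in vehicle nodules. Mobocertinib nodules were the lowest and lay close together, and vehicle replicate 1 held most of the vehicle level. Ccl17 changed by −7.79 ± 0.7696 in mobocertinib (adjusted p = 0.000261), −6.01 ± 0.7102 in T-DM1 (adjusted p = 0.000238), −6.98 ± 0.742 in combination (adjusted p = 0.000154) and −5.81 ± 0.704 in resistant nodules (adjusted p = 9.64e-05). Ccl22 had 0.348, 1.48 and 1.14 CPM in mobocertinib, 18.5, 5.601 and 2.08 in T-DM1, 3.49, 2.44 and 2.36 in combination, 8.29, 6.06 and 1.801 in resistant and 10.3 and 10.99 in vehicle nodules. Ccl22 was called in mobocertinib (−3.41 ± 0.848, adjusted p = 0.00917), but not on log2(TPM + 1) (−0.85, adjusted p = 0.229). For both genes all T-DM1 and all resistant nodules stood above all mobocertinib nodules, without passing the threshold. Ccl17 differed by 1.78 ± 0.601 in T-DM1 (adjusted p = 0.3195) and 1.98 ± 0.604 in resistant nodules (adjusted p = 0.622) against mobocertinib, and Ccl22 by 3.13 ± 0.799 (adjusted p = 0.214) and 2.43 ± 0.7798 (adjusted p = 0.622) in those 2 groups.

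The promoter of Ccl17 is shown because this gene kept its call against vehicle in every alternative (RefSeq, GRCm38.p6, plus strand, chr8:94810203-94810452). Its capitals mark a STAT6 form (TTC, any 4 bases, GAA), which no other window of a chemokine gene held and which 5.85% of all windows held.
Ccl17: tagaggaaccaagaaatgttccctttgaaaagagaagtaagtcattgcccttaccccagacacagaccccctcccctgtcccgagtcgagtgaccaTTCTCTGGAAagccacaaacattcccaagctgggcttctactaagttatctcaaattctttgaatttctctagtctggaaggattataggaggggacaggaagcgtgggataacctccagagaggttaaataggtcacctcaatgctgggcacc
The match lies 154 bases before the start. Ccl17, Ccl22 and Cx3cl1 lie within 66.5 kb on chromosome 8 (94745590 to 94812036), and Cx3cl1 between them moved the other way.

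**Figure D3:**
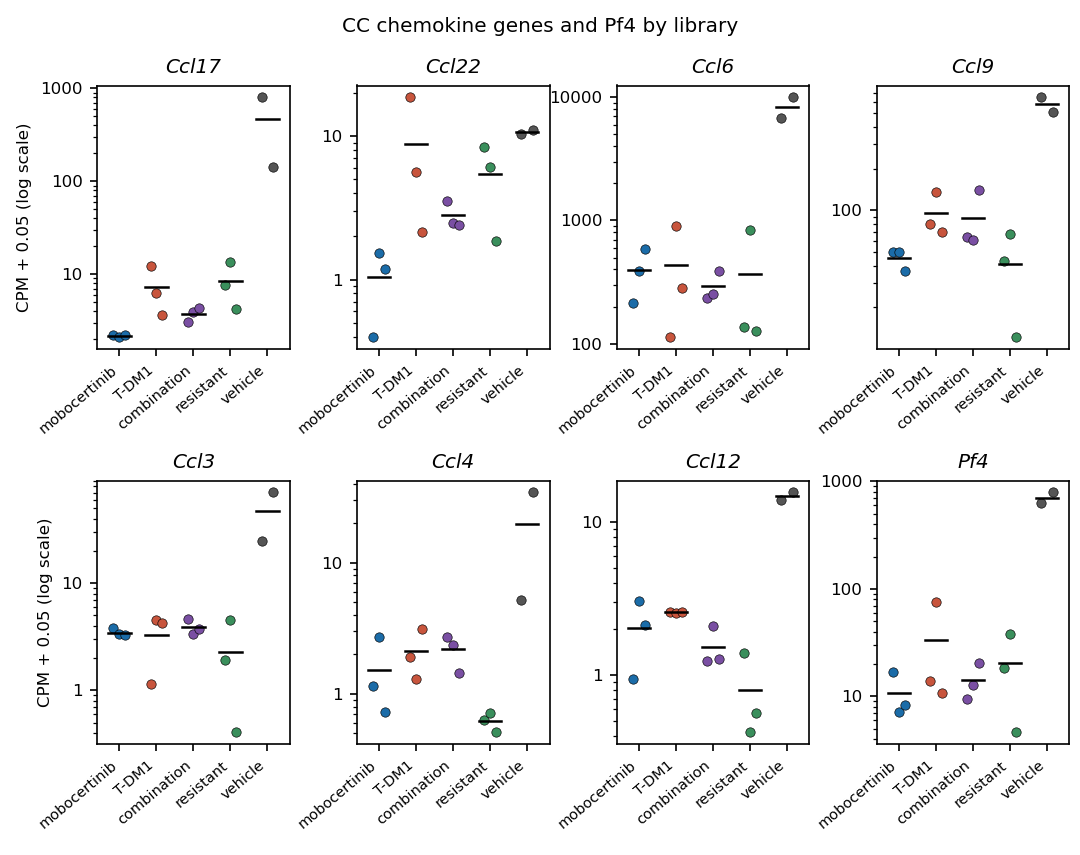
CPM + 0.05 (log axis) of Ccl17, Ccl22, Ccl6, Ccl9, Ccl3, Ccl4, Ccl12 and Pf4 in each library (points) with the group mean (line), vehicle at the right. Ccl17 was 2.06 to 13.4 CPM in the 12 nodules and 798 and 142 CPM in vehicle, and Ccl22 of T-DM1 nodules overlapped vehicle.

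Ccl27a, a ligand of Ccr10 known from skin, Ccl25, a ligand of Ccr9, and Xcl1, lymphotactin, were also lower in all groups. Ccl27a had 7.17, 5.2 and 3.69 CPM in mobocertinib, 2.16, 3.78 and 3.38 in T-DM1, 3.17, 6.46 and 6.74 in combination, 3.199, 2.94 and 2.47 in resistant and 19.9 and 31.9 in vehicle nodules. Ccl27a changed by −2.27 ± 0.429 in mobocertinib nodules (adjusted p = 0.00211), −3.06 ± 0.438 in T-DM1 nodules (adjusted p = 0.000474), −2.25 ± 0.429 in combination nodules (adjusted p = 0.00202) and −3.17 ± 0.4402 in resistant nodules (adjusted p = 0.000207), and all 12 nodules lay below vehicle in CPM. Its calls in mobocertinib and combination nodules were lost with length correction (−1.099, adjusted p = 0.0502 and −0.97, adjusted p = 0.0747) and on log2(TPM + 1) (−0.67, adjusted p = 0.123 and −0.64, adjusted p = 0.134). Ccl25 had 2.59, 2.88 and 2.74 CPM in mobocertinib, 0.932, 2.69 and 1.49 in T-DM1, 2.03, 1.73 and 2.21 in combination, 2.18, 3.86 and 1.85 in resistant and 7.44 and 7.5 in vehicle nodules. Ccl25 was called in all 4 groups, for example −2.12 ± 0.503 in T-DM1 (adjusted p = 0.00765), but in no group with length correction or from TPM. On log2(TPM + 1) its change was positive in mobocertinib, combination and resistant nodules, yet below the median of all genes. Without 1 library it was lost in mobocertinib (any of the 5 libraries), combination (vehicle replicate 2) and resistant nodules (resistant replicate 1, resistant replicate 3, vehicle replicate 1 or vehicle replicate 2). Xcl1 had 0.0996, 0.738 and 0.142 CPM in mobocertinib, 0.636, 0.186 and 0.118 in T-DM1, 0.365, 0.472 and 0.368 in combination, 0.3999, 0.166 and 0.154 in resistant and 0.5998 and 5.57 in vehicle nodules. Xcl1 was called in all 4 groups, from −2.92 ± 1.05 in combination (adjusted p = 0.0458) to −3.63 ± 1.08 in resistant nodules (adjusted p = 0.0176), and mobocertinib replicate 2 and T-DM1 replicate 1 lay above the lower vehicle nodule. Most of the vehicle level of Xcl1 came from vehicle replicate 2, without which it was called in no group, and its calls were also lost with length correction, on log2(TPM + 1) and with the compared groups alone. Ccl27a has a near-identical copy, Ccl27b, so its values are uncertain, as are those of Ccl25 and Xcl1, which share 2.74% and 18.7% of their exon bases with other genes.

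Cxcl16, a transmembrane ligand of Cxcr6, was lower in CPM by small amounts. Cxcl16 had 106, 124 and 95.8 CPM in mobocertinib, 146, 132 and 140.1 in T-DM1, 146, 127 and 136 in combination, 98.3, 69.03 and 94.4 in resistant and 161 and 278 in vehicle nodules. It changed by −1.01 ± 0.248 in mobocertinib nodules (adjusted p = 0.00857), −0.68 ± 0.248 in combination nodules (adjusted p = 0.04796) and −1.33 ± 0.248 in resistant nodules (adjusted p = 0.00128). On log2(TPM + 1) the direction turned (0.33, 0.78 and 0.05), with each change below the median of all genes (1.11 to 1.27 over the groups). There Cxcl16 was called higher in combination (adjusted p = 0.0203) and in T-DM1 nodules (0.68, adjusted p = 0.0385). Without vehicle replicate 2 none of the 3 lower calls from counts was made, nor that in mobocertinib without mobocertinib replicate 3, nor that in combination with length correction or without any 1 combination library. Cxcl16 shares 18.3% of its exon bases with a neighbor, and no label or header says whether counting used strand.

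Of the 36 chemokine genes, 5 were called higher than in vehicle in at least 1 group. Cxcl12, which acts on Cxcr4 and is made by fibroblasts and endothelium, rose in all groups. Cxcl12 had 64.03, 90.9 and 186 CPM in mobocertinib, 130.2, 74.4 and 181 in T-DM1, 93.9, 81.2 and 69.1 in combination, 151, 143 and 76.2 in resistant and 14.8 and 16.1 in vehicle nodules. All 12 nodules lay above both vehicle nodules. Cxcl12 changed by 2.88 ± 0.5105 in mobocertinib nodules (adjusted p = 0.00148), 3.06 ± 0.515 in T-DM1 nodules (adjusted p = 0.00117), 2.398 ± 0.498 in combination nodules (adjusted p = 0.00327) and 3.0 ± 0.514 in resistant nodules (adjusted p = 0.000733), and the calls held in every alternative. Cx3cl1 had 65.2, 61.1 and 64.7 CPM in mobocertinib, 84.04, 81.7 and 92.8 in T-DM1, 104, 76.8 and 53.4 in combination, 47.4, 40.6 and 120.3 in resistant and 33.8 and 15.3 in vehicle nodules. Cx3cl1, fractalkine, a membrane-bound ligand of endothelium and epithelium, changed by 1.37 ± 0.465 in mobocertinib nodules (adjusted p = 0.03803), 1.81 ± 0.474 in T-DM1 nodules (adjusted p = 0.0125), 1.66 ± 0.471 in combination nodules (adjusted p = 0.0165) and 1.497 ± 0.467 in resistant nodules (adjusted p = 0.02204), and all 12 nodules lay above vehicle. Its calls in mobocertinib and resistant nodules were lost with length correction, and those of all groups without vehicle replicate 2. The mobocertinib call was also lost without any 1 mobocertinib library, the combination call without combination replicate 1 and the resistant call without resistant replicate 3. Cxcl12 and Cx3cl1 have messenger RNAs of 5627 and 3315 bases.

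Endothelial markers moved with them. The 10 summed to 554 to 1242 CPM in the 12 nodules and 218 and 253 CPM in vehicle, and 8 of 10 were called higher in each comparison, against 16.8%, 16.7%, 17.6% and 22% of all genes in mobocertinib, T-DM1, combination and resistant nodules. Fibroblast markers summed to 583 to 4254 CPM in the 12 nodules and 673 and 476 CPM in vehicle, with 1, 1, 1 and 5 of 10 called higher in mobocertinib, T-DM1, combination and resistant nodules. Their part was not tested.

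Cxcl17, a chemokine of mucosal epithelium, had the highest TPM of all chemokine genes in 10 of the 12 nodules. Cxcl17 had 1005, 283 and 403 CPM in mobocertinib, 553, 179 and 367 in T-DM1, 609, 893 and 412 in combination, 529, 294 and 646 in resistant and 209 and 199.6 in vehicle nodules. T-DM1 replicate 2 lay below vehicle, so that group overlapped it. Cxcl17 was called higher in combination nodules (1.64 ± 0.5998, adjusted p = 0.0488), and not with RLE or upper-quartile factors or without combination replicate 1, combination replicate 2, vehicle replicate 1 or vehicle replicate 2. With length correction it was called in all 4 groups, for example at 2.67 in mobocertinib (adjusted p = 0.0102). In TPM its level was 1559, 530.3 and 824 in mobocertinib, 957, 314 and 717 in T-DM1, 1264, 1614 and 790.4 in combination, 1148, 537 and 1276 in resistant and 141 and 95.03 in vehicle nodules. Cxcl15 had the highest TPM in T-DM1 replicate 2, resistant replicate 2 and vehicle replicate 1, and Ccl6 in vehicle replicate 2.

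Ccl19, a ligand of Ccr7 that with Ccl21a gathers T cells and dendritic cells, had a count of 0 in both vehicle libraries. Ccl19 had 0.249, 0.627 and 0.426 CPM in mobocertinib, 14.03, 0.248 and 0.746 in T-DM1, 1.096, 2.17 and 1.105 in combination, 3.67, 0.664 and 0.309 in resistant and 0 and 0 in vehicle nodules. T-DM1 replicate 1 held 331 of the 358 counts of its group and resistant replicate 1 101 of 123, so that the bounds of these groups rest mostly on 1 nodule each. Against a floor of 3 counts over the vehicle group it was at least 44.2-fold higher in T-DM1, 14.6-fold in combination and 17.4-fold in resistant nodules, which were called (adjusted p = 0.0182, 0.0406 and 0.0338), and at least 4.53-fold in mobocertinib nodules, not called. All 3 calls were lost without either vehicle library and on log2(TPM + 1), that in combination also without any 1 combination library and that in resistant nodules without resistant replicate 1. These bounds cover counting error only. The deposited TPM, made on another annotation, listed it at 1.24 in vehicle replicate 1 and 0 in replicate 2. Ccl21a had 48.1, 41.8 and 59.3 CPM in mobocertinib, 53.3, 29.7 and 50.5 in T-DM1, 65.8, 76.5 and 38.2 in combination, 73.4, 63.5 and 23.97 in resistant and 14.1 and 64.2 in vehicle nodules. Ccl21a was not called from the counts except with length correction in combination (1.93, adjusted p = 0.0439) and resistant nodules (2.02, adjusted p = 0.0336). From log2(TPM + 1) it was called higher in all 4 groups, as were 55% to 59.7% of all genes. Both have near-identical copies, so their values are uncertain.

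**Figure D4:**
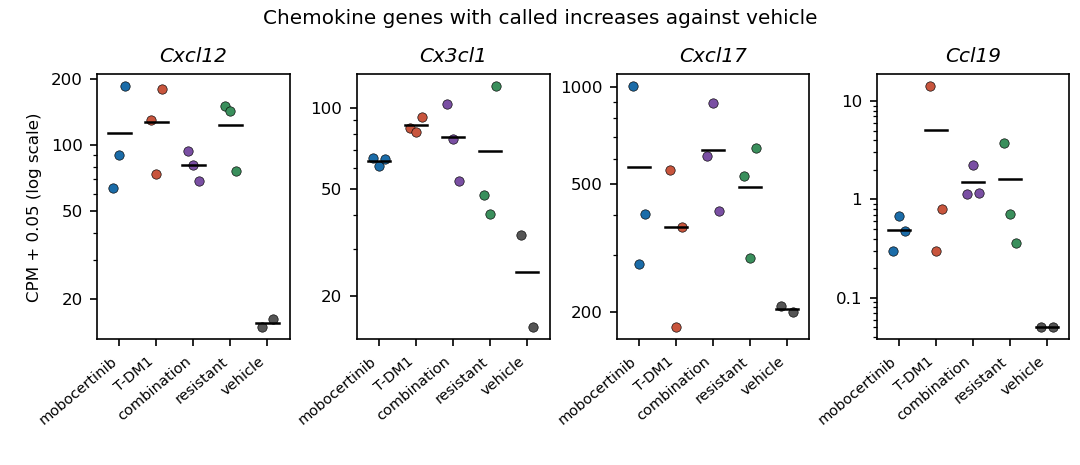
CPM + 0.05 (log axis) of Cxcl12, Cx3cl1, Cxcl17 and Ccl19 in each library (points) with the group mean (line), vehicle at the right. Cxcl12 was 64.03 to 186 CPM in the 12 nodules and 14.8 and 16.1 CPM in vehicle.

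The interferon-inducible ligands of Cxcr3, Cxcl9, Cxcl10 and Cxcl11, which draw activated T cells, were not called in any comparison. Cxcl9 had 1.54, 7.89 and 2.096 CPM in mobocertinib, 11.8, 2.32 and 6.09 in T-DM1, 2.92, 9.48 and 7.48 in combination, 10.3, 2.16 and 2.16 in resistant and 1.26 and 2.08 in vehicle nodules. T-DM1 replicate 1 and resistant replicate 1 were the highest. Cxcl10 lay between 0.249 and 5.72 CPM in the 12 nodules and had 1.08 and 4.31 CPM in vehicle, and Cxcl11 lay at or below 1.26 CPM in all libraries. Cxcl11 shares 41.7% of its exon bases with another gene, so its value is uncertain. GENCODE M21 lists Cxcl11 as a polymorphic pseudogene, and these data do not show whether it encodes a working ligand in these mice.

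Ligands that organize lymphoid tissue and their neighbors were uneven within groups. Cxcl13 draws B cells through Cxcr5. Cxcl13 had 6.72, 8.63 and 21.9 CPM in mobocertinib, 52.9, 7.03 and 11.3 in T-DM1, 3.81, 4.84 and 3.498 in combination, 20.4, 7.88 and 3.86 in resistant and 7.92 and 2.08 in vehicle nodules. T-DM1 replicate 1 had the most, and in the combination all nodules lay below all T-DM1 nodules (−2.55 ± 0.832, adjusted p = 0.891). B cell markers summed to 3668 CPM in T-DM1 replicate 1 and 1268 CPM in resistant replicate 1, 24.9 to 564 in the other 10 nodules and 146 and 224 in vehicle. Their part was not tested. Cxcl14 had 11.6, 18.96 and 17.1 CPM in mobocertinib, 60.2, 35.5 and 41.0 in T-DM1, 18.8, 15.9 and 23.2 in combination, 68.9, 27.7 and 20.99 in resistant and 22.7 and 55.5 in vehicle nodules. Cxcl14, a chemokine of epithelium and fibroblasts, was higher in all T-DM1 and all resistant nodules than in any mobocertinib nodule, by 1.52 ± 0.444 (adjusted p = 0.258) and 1.303 ± 0.442 (adjusted p = 0.622), both short of the threshold.

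Ccl20, the ligand of Ccr6, was made most in 2 T-DM1 nodules. Ccl20 had 2.39, 4.65 and 1.63 CPM in mobocertinib, 29.5, 3.31 and 12.8 in T-DM1, 6.05, 3.03 and 0.405 in combination, 2.799, 1.66 and 3.81 in resistant and 3.42 and 6.09 in vehicle nodules. Its difference of T-DM1 from mobocertinib was 2.39 ± 0.88 (adjusted p = 0.384). Ccl11 had 0.498, 1.29 and 1.35 CPM in mobocertinib, 6.87, 0.3404 and 1.22 in T-DM1, 1.38, 0.512 and 0.921 in combination, 9.78, 1.49 and 0.823 in resistant and 1.2 and 1.78 in vehicle nodules. Ccl11, an eotaxin that draws eosinophils, was not called and was highest in T-DM1 replicate 1 and resistant replicate 1. The eotaxin Ccl24 and the Ccr10 ligand Ccl28 lay at or below 0.8998 and 2.92 CPM in every library. Ccl1 had 0, 0.111 and 0 CPM in mobocertinib, 0.127, 0.0309 and 0 in T-DM1, 0.122, 0.236 and 0.184 in combination, 0, 0 and 0.103 in resistant and 0 and 0 in vehicle nodules. These values of Ccl1 rest on 23 counts.

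Between the 4 groups other than vehicle, edgeR called very little in any gene. In T-DM1 against mobocertinib, which compares the antibody with the inhibitor, 1 of 36 chemokine genes was called, Cxcl3, against 0.0279% of all genes, and the median was 1.06 against 0.01 for all genes. All T-DM1 nodules lay above all mobocertinib nodules for 12 chemokine genes (9.64% of all genes) and below for 0 (9.32%). The 12 were Ccl17, Ccl2, Ccl22, Ccl5, Ccl7, Ccl9, Cx3cl1, Cxcl14, Cxcl16, Cxcl3, Cxcl5 and Ppbp. At an unadjusted p under 0.05 there were 9 of 36, and 1714 of all genes. DESeq2 called 5, Ccl22, Cxcl14, Cxcl3, Cxcl5 and Ppbp (2.41% of all genes). Among the 12 nodules, T-DM1 replicate 1 was the highest for 10 chemokine genes and resistant replicate 3 the lowest for 10. This was not counted over all genes, and resistant replicate 3 was the smallest library (19344015 counts).

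Combination against T-DM1 set both drugs beside the antibody alone. No chemokine gene was called by edgeR (0% of all genes), 6 had an unadjusted p under 0.05 (915 of all genes) and DESeq2 called 1, Cxcl3 (0.422% of all genes). All combination nodules lay below all T-DM1 nodules for 4, Ccl12, Cxcl13, Cxcl14 and Cxcl3 (7.81% of all genes), and above for 0 (8.42%). The median was −0.78 against −0.04.

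Combination against mobocertinib set both drugs beside the inhibitor alone. No chemokine gene was called (0% of all genes), the median was 0.28 against −0.01, 0 had an unadjusted p under 0.05 (262 of all genes), and DESeq2 called 0. All combination nodules lay above all mobocertinib nodules for 8 of 36, Ccl17, Ccl19, Ccl2, Ccl22, Ccl5, Ccl9, Cxcl16 and Cxcl3 (3.49% of all genes), and below for 2, Ccl25 and Cxcl13 (3.21%).

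Resistant against mobocertinib set nodules with acquired resistance beside nodules under the inhibitor. No chemokine gene was called (0.00558% of all genes), the median was 0.03 against 0.07, 6 had an unadjusted p under 0.05 (1394 of all genes), and DESeq2 called 0. All resistant nodules lay above all mobocertinib nodules for 3, Ccl17, Ccl22 and Cxcl14 (4.33%), and below for 3, Ccl27a, Ccl28 and Ccl4 (5.75%). Over all 4 groups, 1 of 36 was called (0.0279% of all genes), and DESeq2 called 8, Ccl17, Ccl2, Ccl22, Cxcl14, Cxcl16, Cxcl3, Cxcl5 and Ppbp (3.72%).

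**Figure D5:**
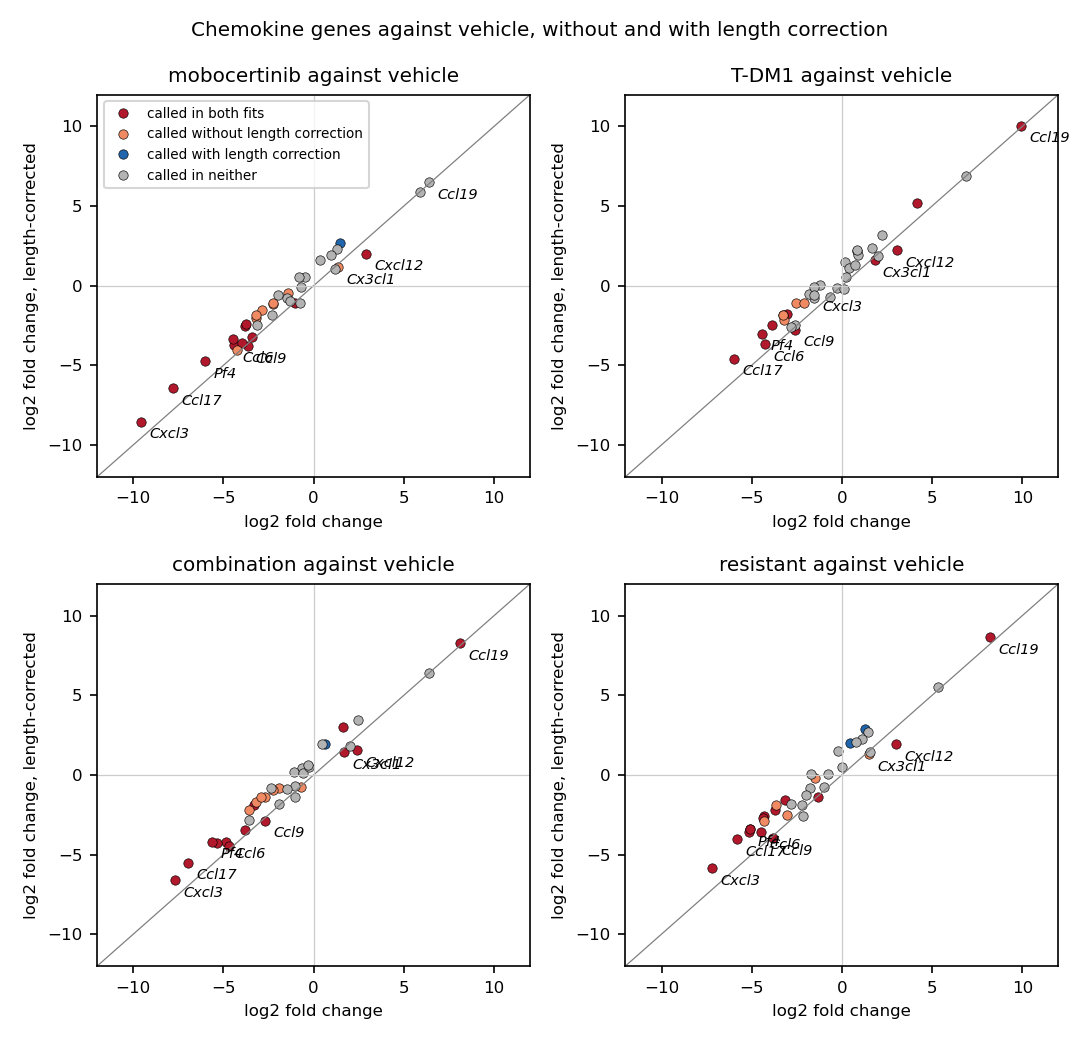
Log2 fold change of the 36 tested chemokine genes against vehicle (horizontal axis) and the same after length correction (vertical axis), one panel per group, with the line of equality. Points are colored by the fit in which they were called, and Ccl17, Cxcl3, Pf4 and Ccl6 are lower on both axes in mobocertinib nodules, Ccl17 at −7.79.

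Of 22 tested chemokine receptors, 2 were higher and 1 lower in mobocertinib, 4 and 2 in T-DM1, 0 and 1 in combination and 4 and 1 in resistant nodules. Of all genes, 16.8% were higher and 16.1% lower in mobocertinib, 16.7% and 14.9% in T-DM1, 17.6% and 17.4% in combination and 22% and 19% in resistant nodules. Ccr1, the receptor of Ccl3, Ccl6 and Ccl9, averaged 10.6 CPM in mobocertinib, 16.8 in T-DM1, 13.1 in combination and 10.1 in resistant nodules and 58.1 CPM in vehicle. It changed by −2.45 ± 0.423 in mobocertinib, −1.79 ± 0.417 in T-DM1, −2.15 ± 0.4199 in combination and −2.52 ± 0.423 in resistant nodules (adjusted p = 0.00127, 0.00709, 0.00229 and 0.000646 in that order). Ackr2, a scavenger of inflammatory CC chemokines, rose by 2.46 ± 0.781 in mobocertinib (adjusted p = 0.0288), 2.23 ± 0.772 in T-DM1 (adjusted p = 0.04301) and 2.74 ± 0.791 in resistant nodules (adjusted p = 0.0152). Ackr3, which takes up Cxcl12, rose by 1.36 ± 0.459 in T-DM1 nodules (adjusted p = 0.0389). Cxcr5, the receptor of Cxcl13, had a count of 0 in vehicle. Against a floor of 3 counts over the vehicle group, it was at least 18.5-fold higher in mobocertinib, 43.8-fold in T-DM1 and 23.75-fold in resistant nodules (adjusted p = 0.0463, 0.0235 and 0.0333). Ccr6, the receptor of Ccl20, had 176 counts in T-DM1 and 143 in resistant nodules and 1 in vehicle. Those are ratios of 65.2 (exact 95% interval 11.6 to 2588) and 60.6 (10.7 to 2412). Ccr8 was at least 7.35-fold higher in resistant nodules (adjusted p = 0.0283).

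Of 15 NF-kB targets and subunits, 2 were higher and 2 lower in mobocertinib, 2 and 0 in T-DM1, 1 and 3 in combination and 1 and 3 in resistant nodules, against the shares of all genes given for the receptors. Nfkb1 averaged 74.05 CPM in mobocertinib, 93.2 in T-DM1, 85.1 in combination and 84.8 in resistant nodules and 30.4 CPM in vehicle, and was called higher in all. Il1b, a cytokine that induces Cxcl1 and Cxcl2, was called lower in mobocertinib (5.68 CPM), combination (10.8 CPM) and resistant nodules (3.46 CPM) against 42.4 CPM in vehicle. Tnf, another inducer of chemokines, was called lower in those groups, at 1.07, 1.31 and 1.32 CPM against 6.12 CPM in vehicle. Il6 averaged 0.0525 CPM in combination (adjusted p = 0.0135) and 0.0138 CPM in resistant nodules (adjusted p = 0.00475), against 1.56 CPM in vehicle. Nfkb2 was called higher in T-DM1 and Nfkbia in mobocertinib nodules.

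Of 14 tested genes of the interferon-gamma response, 1 was higher and 0 lower in mobocertinib, 5 and 0 in T-DM1, 3 and 1 in combination and 1 and 2 in resistant nodules, against the same shares of all genes. Gbp5, a guanylate-binding protein, averaged 6.71 CPM in mobocertinib, 15.1 in T-DM1, 10.7 in combination and 7.201 in resistant nodules and 0.7798 CPM in vehicle, and was called in all. Gbp2 averaged 108 CPM in T-DM1 and 45.1 CPM in combination nodules and 12.4 CPM in vehicle (adjusted p = 0.00197 and 0.0187). Gbp3 and Irgm1 were called higher in T-DM1 and Gbp3 in combination nodules. Cd274, encoding PD-L1, changed by −1.53 ± 0.506 in combination (adjusted p = 0.0327) and −1.65 ± 0.506 in resistant nodules (adjusted p = 0.0204). By edgeR no receptor, NF-kB or interferon-gamma gene was called between the groups other than vehicle. Calls in these lists were not followed with length correction, on TPM or with a library left out.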

How the data were processed

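RNA of 14 lung tumor nodules was sequenced. The authors deposited raw counts per gene and, on another annotation, TPM values. STAR, RSEM and mm10 are named in the submitters' processing notes, while no label or header names the annotation or the strand setting. Groups came from the labels, and replicates were numbered in accession order. Genes were filtered with filterByExpr by group, scaled by TMM and fitted in one edgeR 4.0.16 quasi-likelihood model over the 5 groups (R 4.3.3), with Benjamini-Hochberg adjustment over all 17933 genes tested. The scripts were tested on simulated data, where 0% to 4% of 2-fold and 22% to 54% of 4-fold changes were called. Of 8-fold changes 62% to 74% were called and of 16-fold changes 66% to 78%, with 2 to 7 false calls. Alternatives were RLE and upper-quartile factors, no filter beyond 1 count, DESeq2 1.42.0, a length correction (lowess offset per library on transcript length, GENCODE M21), limma 3.58.1 on log2(TPM + 1) and log2(TPM + 0.1), the compared groups alone, and each library left out. Genes called in any comparison with a mean of at least 1 CPM, and a fixed set of others, were given in every library. The members and lists were chosen with earlier results of these data known. Intervals and bounds cover counting error only. Some genes of the pathway lists are not reported here by name.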

Additional observations from a re-analysis of the deposited data

How the results depend on the processing

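Leaving out 1 library at a time, the counts of called chemokine genes ranged from 11 to 18 in mobocertinib, 8 to 17 in T-DM1, 10 to 17 in combination and 14 to 19 in resistant nodules against vehicle. Between the other groups they ranged from 0 to 1 in T-DM1 against mobocertinib and over all 4 groups, and stayed at 0 in combination against mobocertinib, combination against T-DM1 and resistant against mobocertinib. With length correction 13 were called in mobocertinib against vehicle, and from log2(TPM + 1) 13 in combination against vehicle. DESeq2 called 5 in T-DM1 against mobocertinib, 1 in combination against T-DM1 and 8 over the 4 groups. In T-DM1 against mobocertinib the count was 0 with no filter beyond 1 count, on log2(TPM + 1) and with the compared groups alone, while on log2(TPM + 0.1) Cxcl3 was called (adjusted p = 0.0287). Over the 4 groups the count was 0 on log2(TPM + 1), and Cxcl3 was not called on log2(TPM + 0.1) either (adjusted p = 0.0699). The calls of Ccl12, Ccl3 and Ccl7 in mobocertinib nodules were lost on log2(TPM + 0.1) and not on log2(TPM + 1). On log2(TPM + 1) the median of all genes moved by 1.11 to 1.27 against vehicle. Among genes called from counts, changes called from counts or from TPM turned direction for 2 genes, Ccl25 and Cxcl16, with either pseudocount. Changes called in neither turned direction for other genes too, such as Ccl2 in T-DM1 nodules (−1.19 from counts and 0.434 on log2(TPM + 1)). With pseudocounts of 1 and 0.1, Ccl25 changed by 0.356 and 0.455 in mobocertinib, 0.0361 and 0.0553 in combination and 0.124 and 0.167 in resistant nodules, and Cxcl16 by 0.332 and 0.336 in mobocertinib, 0.681 and 0.6896 in T-DM1, 0.782 and 0.791 in combination and 0.0469 and 0.047 in resistant nodules. Cxcl16 was called higher in T-DM1 and combination nodules with either pseudocount. Apart from the effect of leaving out libraries, the cause was not tested. No paired analysis was possible because the labels number no replicates. Ccl1, at 23 counts in all, could not be compared at this depth.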
